A study of Mus musculus with 2 samples.

Results

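The ubiquitin-specific proteases (Usp) were examined at the level of their mRNAs in NIH3T3 cells, an established line of mouse fibroblasts. Members were the coding accessions (RefSeq accessions starting with NM) on the array whose gene name was Usp followed by a number, and there were 51 of them, for 50 genes, among 18754 coding accessions in all. Cells of the control group were untreated and cells of the thapsigargin group received 10 µM thapsigargin, which blocks the calcium pump of the endoplasmic reticulum (ER), for 3 h. Each group had 4 plates, kept in 10% serum, and RNA of 3 preparations was pooled per group. Lysates were run on sucrose gradients of 10 to 40%, and polysome RNA (P) was hybridised against free and monosome RNA (FM) on 1 array with 2 colours per group. Translation efficiency was scored on a log2 scale as P signal over FM signal (log2 P/FM), and abundance of signal as A, the mean of the log2 values of both channels. With 1 array per group no difference had a replicate check and no test was possible, so that all counts rest on thresholds of size, and rose and fell are used here for changes of 1 or more.

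Usp enzymes form the largest family of deubiquitinases. They are cysteine proteases that cut ubiquitin from proteins or from ubiquitin chains, and thereby oppose ubiquitin ligases, rescue substrates from the proteasome, recycle ubiquitin or reverse ubiquitin signals on histones and receptors. Thapsigargin sets off the unfolded protein response, in which phosphorylation of the initiation factor eIF2 lowers translation of most mRNAs. Not every member is a protease: Usp39 is a splicing factor without catalytic activity, Usp52 is the deadenylase subunit now named Pan2, Usp50 is thought to be inactive, and Usp6nl is a GTPase-activating protein named after its likeness to the start of USP6.

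The 51 mRNAs were read by 83 probes of 60 bases, each printed as 1 spot. The first 30 bases of the probe nearest the transcript end, as the array file lists them, are shown in lower case for the members on which the results turn, the 5 largest rises in log2 P/FM, the 3 largest falls, and Usp7, the member with the strongest signal.
Usp9x: gcatagcatgtgtagacataaccagcaatg
Usp37: tacacaattaggaaactgtactttccatga
Usp31: caccattagtgagctctgtataagtttaat
Usp33: aggcacttctattttgagagcatgaagtat
Usp24: gacaattatggcaggcctgccttgaaagaa
Usp7: agagccttttagcaagggcgcatgctcgct
Usp4: cccactgcccttgataaagtgattctatgt
Usp30: ggttcctgactacagctcctccacatacct
Usp21: gctacgtgctgttctaccaattgatgcagg

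On mm9, per the array files, the Usp9x probe lies at chrX:12748162-12748220 on the plus strand and starts at base 9610 of the transcript. The Usp31 probe lies at chr7:128785799-128785858 on the minus strand, from base 9874 of the transcript, and the Usp24 probe at chr4:106113403-106113462 on the plus strand, from base 10071. The Usp37 probe is at chr1:74482662-74482721 (minus strand, base 6558), the Usp33 probe at chr3:152056038-152056094 (plus strand, base 3647) and the Usp7 probe at chr16:8690048-8690107 (minus strand, base 4134). The Usp4 probe is at chr9:108294784-108294843 (plus strand, base 3591), and the Usp21 probe at chr1:173212333-173212392 (minus strand, base 1872). The Usp30 probe, from base 1374, spans chr5:114571147-114571577 on the plus strand, more than its 60 bases, so that it joins more than 1 exon. The probe start is a lower limit on the length of the transcript. Whether a probe lies in the coding part or in a UTR was not determined here.

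An mRNA was called detected when A was above 4.5 on both arrays, as for 36 of the 51 Usp mRNAs (70.6%) and 10033 of the coding mRNAs (53.5%). Every probe of 27 of the 36 was well above background in both channels on both arrays by the flag of the scanner software, and no Usp spot was saturated. None of 153 negative control spots passed the filter. Of the fibroblast markers all 6 were detected, as was 1 of the 7 markers of epithelial cells, leukocytes and endothelium together (Cd68, a leukocyte gene, at log2 P/FM of 0.25 and -0.70), and Ptprc, Epcam and Pecam1 were below the filter. Treatment showed in the signal of the ER stress genes, with A of Ddit3 at 8.71 in control cells and 12.42 under thapsigargin. The nearest substitute for replicate error was the standard deviation (SD) of the change over probes of one mRNA, which covers array error only. Its median was 0.22 over 21 detected Usp mRNAs, with all their probes taken. Over 3438 coding mRNAs it was 0.32, with only probes taken that had A above 4.5 on both arrays.

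In control cells, Usp mRNAs had a lower median log2 P/FM than all detected mRNAs. Their median log2 P/FM was -0.14, with a range from -1.85 to 1.16, while the median of all detected mRNAs was 0.34. With the normexp background correction, which let all 51 pass, both medians were -0.55 and this gap was absent. Of the 36, 16 (44.4%) were at 0 or above, against 63.5% of all mRNAs. Under thapsigargin the order was the opposite, with a Usp median of 0.15 and a range from -2.49 to 1.71, and a median of -0.29 over all mRNAs. Now 21 (58.3%) of the Usp mRNAs were at 0 or above, against 37.4% of all. RNA came from whole cultures, in which fewer cells carrying an mRNA and less of it per cell cannot be told apart.

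The median change, thapsigargin minus control, was 0.30 for Usp mRNAs and -0.71 for all mRNAs, which leaves a difference of 1.01. The sign of the Usp median depended on the filter, since it was -0.20 over the 27 mRNAs well above background and -0.37 over the 15 with A above 7, where the medians of all mRNAs were -0.83 and -1.10. Centring each array and spike-in scaling shift every mRNA alike and leave this difference as it is, and in the 8 alternative settings that could change it, it was between 0.24 and 1.03. Of the 36 mRNAs, 21 were higher in log2 P/FM under thapsigargin and 15 lower, where of all 10033 mRNAs 2940 were higher and 7093 lower. The Usp split was 13 to 14 over the mRNAs well above background and 6 to 9 with A above 7. Over the 36 it was 26 to 10 with the normexp background correction, 24 to 12 with processed signals or loess, 30 to 6 with each array centred on its median and 36 to 0 with scaling to the spike-in RNAs. The median log2 P/FM of the spike-in RNAs over 10 probes was -0.40 on the control array and -2.95 on the thapsigargin array. None of the 21 that were higher turned lower with normexp, processed signals or loess. The median change of all mRNAs was also higher with these settings, at 0.33, -0.30 and -0.15 in that order, against -0.71. A kept sign of the 21 is therefore little support. The other settings move all changes up together or leave them nearly as they are.

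**Figure D1:**
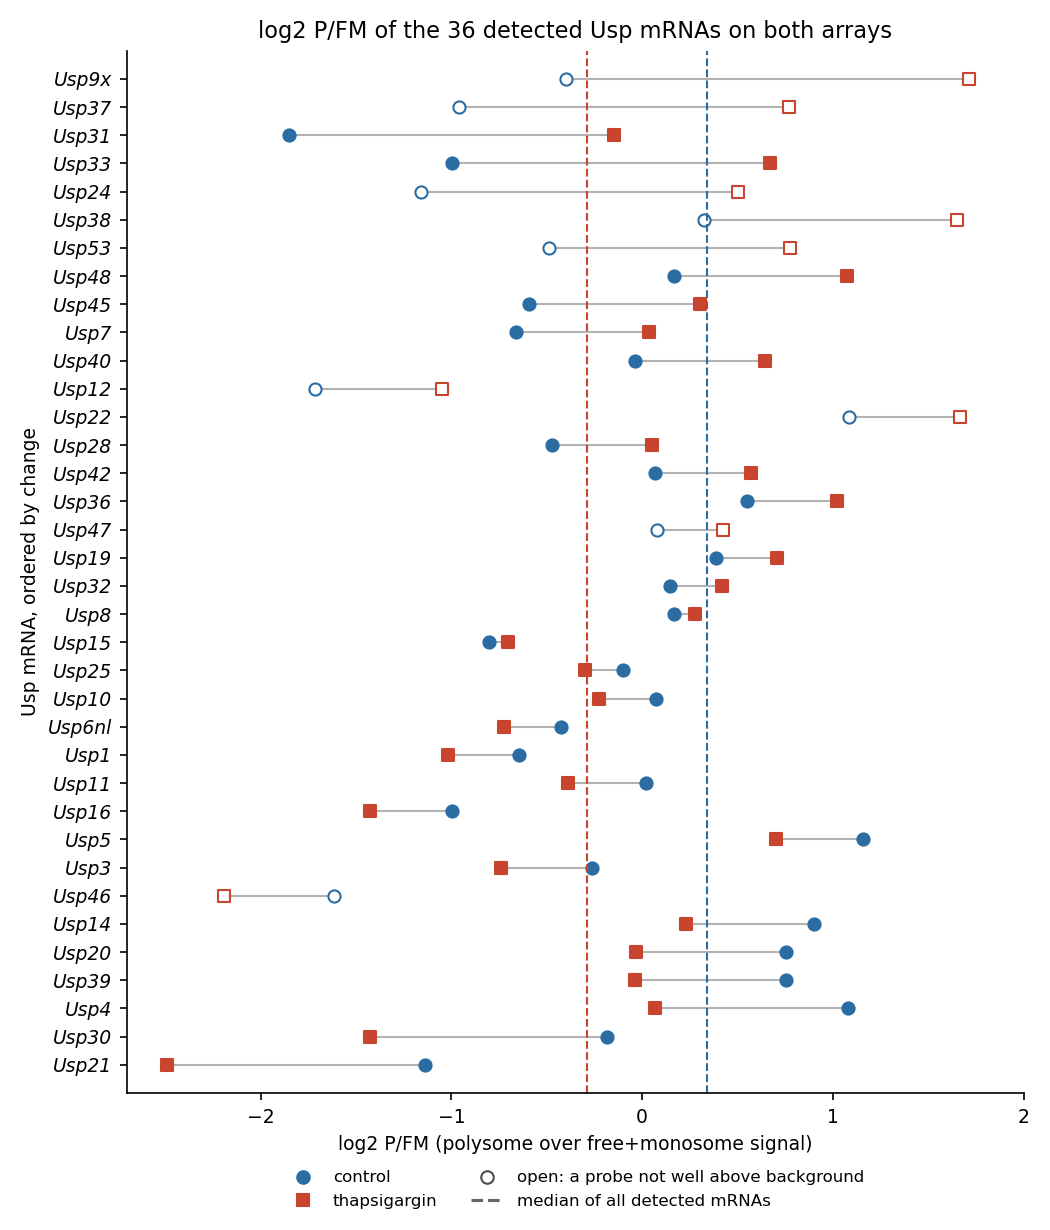
log2 P/FM of each detected Usp mRNA (y axis, ordered by change) in control cells (circles) and under thapsigargin (squares), with dashed lines at the medians of all detected mRNAs (0.34 in control cells, -0.29 under thapsigargin). The 21 mRNAs in the upper part are higher under thapsigargin and the 15 in the lower part are lower without normalization, but 9 of these 15 are higher after centring each array and all 15 after spike-in scaling.

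The study sorted mRNAs into translation classes by size of change. Sensitive mRNAs, with a change of -0.8 or lower, were 3 of the 36 Usp mRNAs (8.33%), namely Usp21, Usp30 and Usp4, against 47.0% of all mRNAs. Usp39 and Usp20 were just outside, both at -0.79. Inducible mRNAs, which had to start at 0 or lower and gain 1 or more, were 6 of 36 (16.7%), namely Usp9x, Usp37, Usp31, Usp33, Usp24 and Usp53, against 8.86% of all. Resistant mRNAs, at 0.8 or more on both arrays, were Usp22 alone, against 3.0% of all mRNAs. Counting by change alone, 7 Usp mRNAs rose by 1 or more, where the share of all mRNAs was 9.9%, and 3 fell by 1 or more, where it was 40.8%. These counts moved with the processing. After centring each array no Usp mRNA was sensitive, against 27.3% of all, and 14 (38.9%) were inducible, against 18.4% of all. Over mRNAs well above background 3 of 27 (11.1%) were sensitive, against 50.8% of all, and 2 (7.41%) inducible, against 7.52% of all, so that the surplus of inducible mRNAs was not seen there. With A above 7 the shares of inducible mRNAs were 6.67% (1 of 15) and 5.1%.

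**Figure D2:**
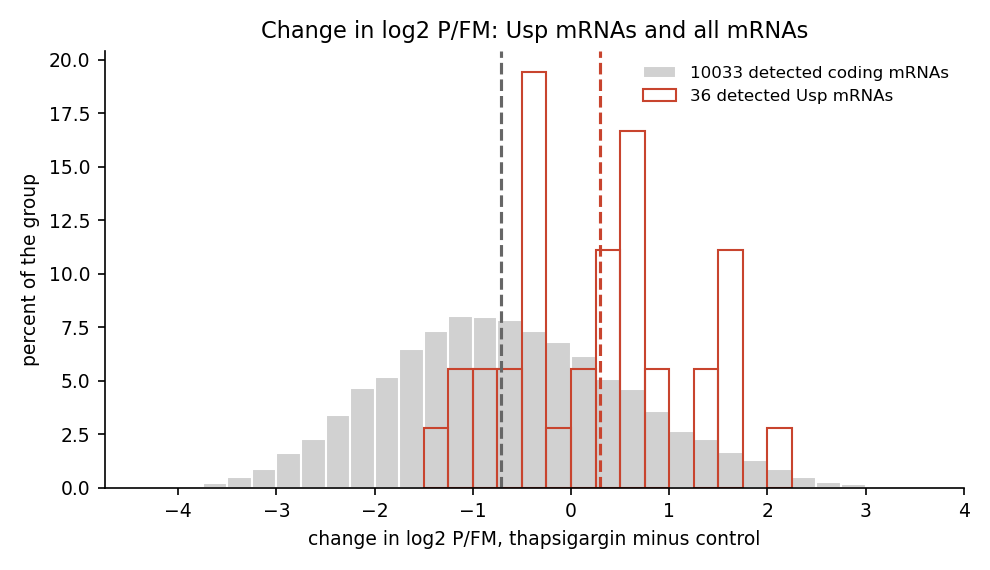
Distribution of the change in log2 P/FM (x axis, thapsigargin minus control, in steps of 0.25) as a percent of each group (y axis), for all detected coding mRNAs in grey and Usp mRNAs in red outline, with dashed lines at the medians of -0.71 and 0.30. Red bars are few below -0.8, where 47.0% of all mRNAs lie, and the Usp median is -0.20 when only mRNAs well above background are kept.

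Usp9x, an X-linked enzyme of large size that acts on signalling and endosomal proteins, had the largest rise, from -0.40 to 1.71. Its probe at base 7335 had a P signal of 47.3 in control cells and 182 under thapsigargin, and an FM signal of 38.1 and 54.0. At base 9610 the P signal was 12.0 and 41.8 and the FM signal 26.0 and 13.1, and 1 channel on each array was not well above background. With the dim channels set to the lowest signal flagged well above background, the mean rise over both probes was 1.65. This is no firm lower limit, since unflagged signals could be higher. At 1 Usp47 probe they were 22.15 for P in control cells and 34.1 for FM under thapsigargin. The Usp9x probe at base 7335, well above background in every channel, changed by less than 1.65. So the 2 Usp9x probes differed in size of change, 1.44 and 2.79, and both were higher under thapsigargin.

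Usp33 and Usp20 are close paralogues that bind the von Hippel-Lindau protein and act on the beta-adrenergic receptor, and their values went opposite ways. Usp33 rose from -1.0 to 0.67, by 1.67 ± 0.09 (SD over 2 probes). At its last probe the P signal was 126 in control cells and 391 under thapsigargin, while the FM signal was 261 and 245. Usp20 went from 0.76 to -0.03, a change of -0.79 ± 0.31 (SD over 2 probes), and at its last probe the P signal was 700 and 1218 and the FM signal 378 and 1323. So P signal was higher for both mRNAs under thapsigargin, and FM signal only for Usp20. The change in Usp20 was 1.76 after spike-in scaling, where that of Usp33 was 4.22. The second accession of Usp33, read by 1 probe at base 862, was under the filter.

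Usp31, the other inducible mRNA with all probes well above background, rose from -1.85 to -0.15, by 1.70 ± 0.22 (SD over 2 probes). The control value was the lowest of all Usp mRNAs. Its FM signal at the last probe was 89.5 in control cells and 54.1 under thapsigargin, and its P signal 34.4 and 75.1. At the first probe too, FM signal was lower (114 and 66.4) and P signal higher (22.9 and 38.9) under thapsigargin.

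Usp37, which acts on cyclin A at entry into S phase, rose from -0.96 to 0.77, by 1.73 ± 0.91 (SD over 3 probes). Its 3 probes gave changes of 0.69, 2.19 and 2.32 from the first to the last, and P signals from 19.5 to 27.6 in control cells and from 66.5 to 96.9 under thapsigargin. All 3 were higher, and the first differed from the others by more than the typical spread between probes. Usp24, which encodes one of the largest Usp enzymes, rose from -1.16 to 0.50 with changes of 1.15 and 2.17 at its 2 probes. In both mRNAs the P signal of 1 control probe was not well above background. With that signal taken as an upper limit, the mean rises over probes are at least 1.73 and 1.66. Probes well above background in every channel gave 0.69 and 2.32 for Usp37 and 1.15 for Usp24.

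Usp38 rose from 0.32 to 1.65 over 3 probes with changes of 1.08, 1.39 and 1.52, and Usp53 from -0.49 to 0.77 at its only probe. An FM signal of each in control cells was not well above background. With that signal taken as an upper limit, the rises are at most 1.33, as a mean over probes, and 1.26. The last Usp38 probe, well above background in every channel, changed by 1.52. A further Usp53 probe, listed under another type of accession and therefore no member, was well above background in every channel and changed by 1.64.

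Among the mRNAs with smaller changes, Usp7 had the strongest signal of the family, with A of 10.53 in control cells and 11.20 under thapsigargin. Usp7 deubiquitinates p53 and its ligase Mdm2. Its log2 P/FM was -0.66 and 0.04, from a P signal of 1172 and 2379 and an FM signal of 1854 and 2318. It went from a surplus in the free and monosome fraction to near parity, a change of 0.70 below the threshold for an inducible mRNA. Usp48, which acts on the NF-kappaB subunit RelA, was higher by 0.91 ± 0.43 (SD over 3 probes) and Usp45, which acts on the DNA repair protein Ercc1, by 0.90 ± 0.23 (SD over 2 probes). Usp40 was higher by 0.68, Usp28, which acts on Myc, by 0.52 and Usp42, which acts on p53, by 0.51. These kept their sign with normexp, processed signals and loess, in which the median change of all mRNAs was also higher.

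Usp21, which deubiquitinates histone H2A, had the largest fall, by 1.35 on the log2 scale from -1.14 to -2.49. The P signal was 70.2 in control cells and 33.6 under thapsigargin, and the FM signal 155 and 188. It was the lowest Usp mRNA under thapsigargin, and the only one of the 36 with a P signal lower by more than 1 on the log2 scale. Usp30, which sits in the outer mitochondrial membrane and opposes removal of mitochondria, fell by 1.24 from -0.18 to -1.43 at its only probe, with a P signal of 70.3 and 49.2 and an FM signal of 79.8 and 132. Another, brighter Usp30 probe, under another type of accession and therefore no member, was well above background in every channel. It changed by -0.76, short of the -0.8 for a sensitive mRNA. Usp4, a nuclear and cytoplasmic enzyme linked to TGF-beta receptors, fell from 1.08 to 0.07, by 1.01 on the log2 scale with an SD of 0.16 over 2 probes. At its last probe the P signal was 759 and 888 and the FM signal 376 and 818. All 3 falls became rises of 1.2, 1.31 and 1.54 after spike-in scaling and kept their sign in the other settings in which they passed the filter.

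A further 12 mRNAs were lower by less than 0.8, with changes from -0.79 to -0.20. Among them were Usp39 (0.75 in control cells and -0.04 under thapsigargin), Usp14 (0.90 and 0.23), Usp3 (-0.26 and -0.74) and Usp5 (1.16 and 0.70). With spike-in scaling all 12 were higher. Of the 4 named, Usp3 and Usp5 were also higher with centring, and Usp14 and Usp5 with normexp. Usp14, the deubiquitinase bound to the proteasome, was read by 3 probes with changes of -0.98, -0.51 and -0.53. Usp5, which takes apart free ubiquitin chains, had the highest control value of the family. Both enzymes of the proteasome and free chain group that were detected were thus among the 4 Usp mRNAs with the highest log2 P/FM in control cells, and Usp13, the paralogue of Usp5, was not detected.

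Of 9 accessions in the group for histones and transcription, 6 were detected, 3 higher and 3 lower, with a median change of 0.02. Usp3 and Usp16, both histone H2A deubiquitinases, were lower by 0.47 and 0.43, besides Usp21. Usp22, the H2B deubiquitinase of the SAGA complex, had log2 P/FM of 1.09 and 1.67, but from a P signal of 34.9 and 45.6 and an FM signal of 16.4 and 14.3 that the flag put near background on both arrays. With FM set to the lowest FM signal flagged well above background on each array, its level was 0.98 and 1.12. Unflagged FM signals could be higher, such as 28.2 for Usp53 in control cells and 34.1 for a Usp47 probe under thapsigargin. These levels are therefore no firm lower limits, and its change is not bounded. The DNA damage and p53 group held Usp1, Usp7, Usp10 and Usp28, of which Usp7 and Usp28 were higher, and Usp1, the enzyme for Fancd2 and Pcna, and Usp10 were lower by 0.37 and 0.30. Usp1, Usp10 and Usp16 turned higher with processed signals, loess, centring or spike-in scaling, and Usp3 with centring or spike-in scaling.

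Without scaling, close paralogues differed in the sign of their change, though Usp15 and Usp25 moved by less than the typical spread between probes. Usp4, Usp11 and Usp15 changed by -1.01, -0.41 and 0.10. Usp25, which acts in ER-associated degradation, changed by -0.20 and Usp28 by 0.52, and both were higher with normexp (0.31 and 0.58) or after centring (0.43 and 1.15). Usp12 and Usp46, which both work with the activator Wdr48, had among the lowest control values, at -1.71 and -1.61, and changed by 0.67 and -0.58, or by 1.3 and 0.05 after centring. Probes of Usp12 disagreed in level, with an SD of 1.27 in control cells, but were 0.05 apart in change, and 1 P signal of each mRNA was not well above background. Of the membrane enzymes, Usp19, anchored in the ER, was at 0.38 and 0.71, and Usp30 is described above. Of the endosomal enzymes, Usp8, which works with the ESCRT machinery, was at 0.16 and 0.28, a change below the typical spread between probes. Usp6nl, no protease, was at -0.43 and -0.72.

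In signal, 34 of the 36 Usp mRNAs had a higher A under thapsigargin, as had 7707 of all 10033 mRNAs. Their median changes in A were 0.69 for Usp mRNAs and 0.37 for all mRNAs. A was higher by 1 or more for 6 (16.7%), against 11.7% of all mRNAs. Usp36, a nucleolar enzyme that stabilises Myc, stood first with A of 7.25 and 9.08, a change of 1.83. At its first probe the P signal was 167 in control cells and 726 under thapsigargin and the FM signal 148 and 449. Both fractions were thus higher, and log2 P/FM at that probe went from 0.18 to 0.69. As a mean over its 2 probes it went from 0.55 to 1.02. The others were Usp24 (1.14), Usp38 (1.13), Usp11 (1.13), which works with the repair protein Brca2, Usp53 (1.11) and Usp16 (1.09). The median change in A was -1.12 with the normexp correction, where that of all mRNAs was -1.48.

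The fractions were then taken one by one. For Usp mRNAs the median change in the log2 P signal was 0.73 and in the log2 FM signal 0.46. For all detected mRNAs they were 0.02 and 0.72. P signal was higher under thapsigargin for 32 of the 36 Usp mRNAs and FM signal for 30, and both were higher for 26. Of all 10033 mRNAs, P signal was higher for 5090, FM signal for 8684 and both for 4216. The P signal was lower for Usp21, Usp30, Usp46 and Usp39. These signals were not scaled between arrays.

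**Figure D3:**
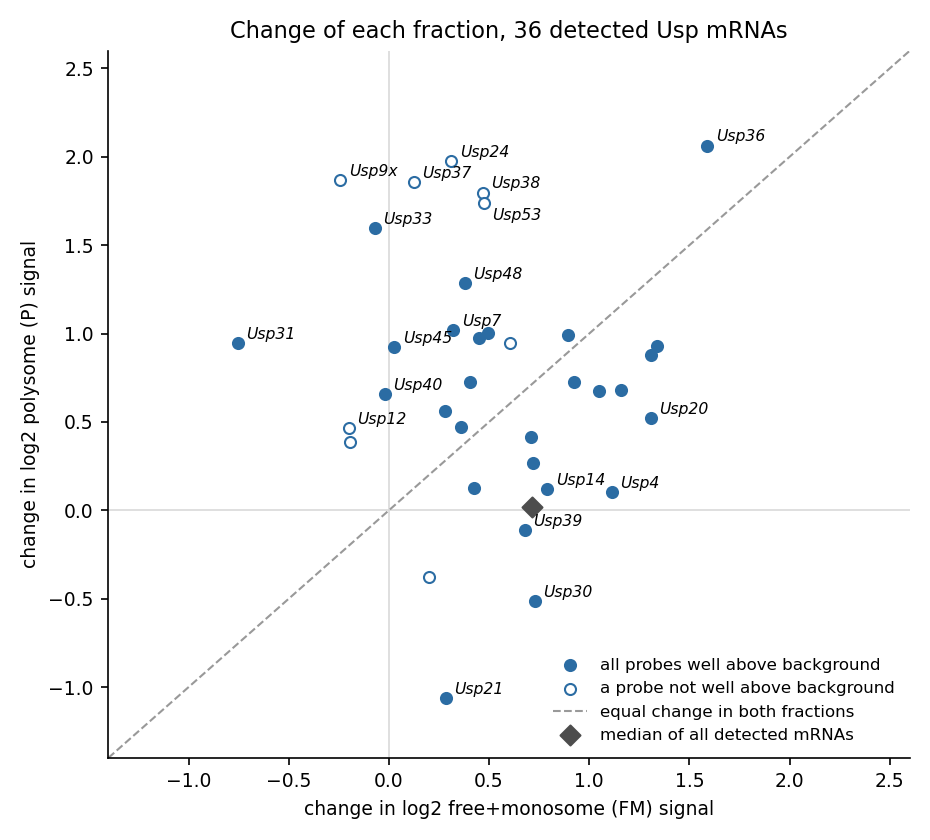
Change in the log2 signal of the free and monosome fraction (x axis) against that of the polysome fraction (y axis) for each of the 36 detected Usp mRNAs, with the dashed line at equal change and a diamond at the medians of all detected mRNAs (0.72 and 0.02). Of the Usp mRNAs, 32 are above 0 on the y axis, against 5090 of all 10033 mRNAs. Usp36 is high in both fractions, and the inducible mRNAs lie above the line, with changes between -0.75 and 0.47 in the free and monosome fraction.

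The change in log2 P/FM of Usp mRNAs went with the position of their last probe in the transcript, with Pearson's r of 0.76 and Spearman's rho of 0.77 over 36 mRNAs and 0.72 and 0.75 over the 27 well above background. Over all 10033 mRNAs these were 0.53 and 0.54. The points share the arrays, and mRNAs are not independent replicates. The last probe of Usp mRNAs started at a median of base 3674, against base 2083 for all mRNAs. All 5 Usp mRNAs with a last probe before base 2000 were lower, with changes from -1.35 to -0.47, and all 8 with one from base 5000 on were higher, with changes from 0.28 to 2.11. The first were Usp21, Usp30, Usp39, Usp14 and Usp3, and the others Usp32, Usp47, Usp45, Usp48, Usp24, Usp31, Usp37 and Usp9x.

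Over all mRNAs the median change was -1.3 for last probes before base 2000, -0.55 from base 2000 to 3000, -0.15 to base 4000, 0.13 to base 5000 and 0.75 beyond. In the same ranges the Usp medians were -0.79 over 5 mRNAs, -0.44 over 4, 0.29 over 14, 0.68 over 5 and 1.29 over 8. The differences from all mRNAs in a range, of 0.11 to 0.55, were smaller than the 1.01 found without regard to position. Usp33, with a last probe at base 3647, stood farthest above the others in its range, and Usp4 farthest below. The share of position in the change was not tested, and mean A, which is lower for mRNAs with later probes (r of -0.39 over 36), moved with it.

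**Figure D4:**
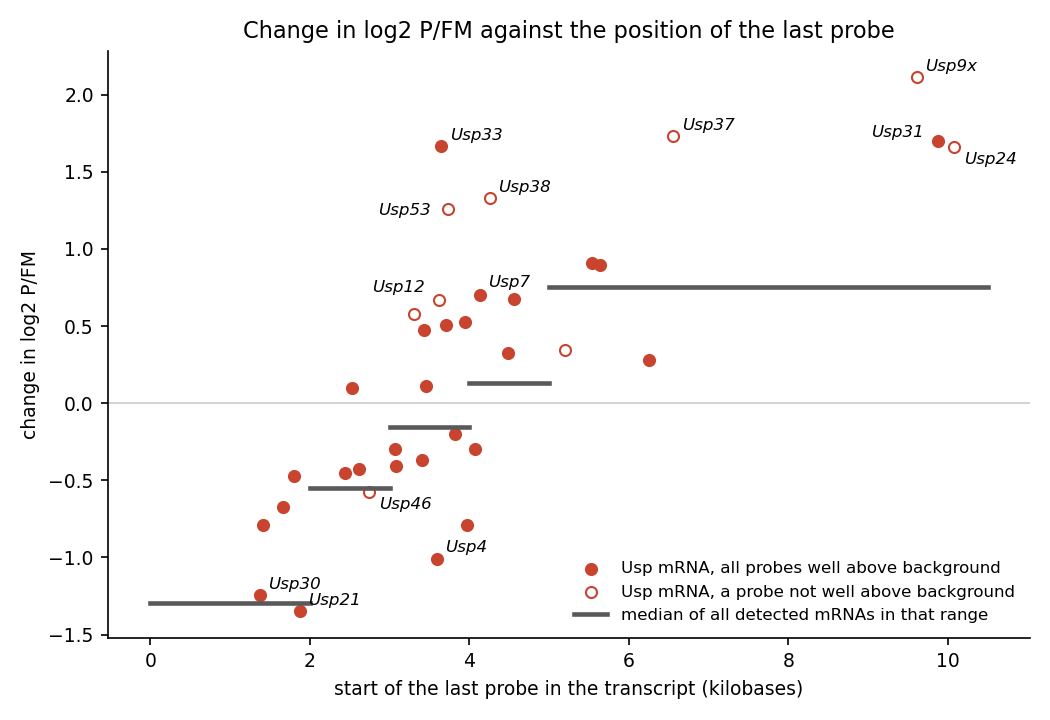
Change in log2 P/FM (y axis) of each detected Usp mRNA against the start of its last probe in the transcript (x axis, kilobases), with horizontal bars at the median of all detected mRNAs in each range of position. Points and bars both go from below 0 on the left to above 0 on the right, and after spike-in scaling all 36 points are above 0.

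Probes of one mRNA mostly gave the same direction. Of 26 Usp mRNAs with more than 1 probe, 17 had both the first and the last above the filter, and the change had the same sign in 16, the exception being Usp15 at -0.03 and 0.23. First and last changes had r of 0.86 and rho of 0.88 over the 17. The last probe had the higher change in 11, by a median over the 17 of 0.22. Probes differed in change by 1 or more for Usp9x, Usp37 and Usp24 among detected mRNAs, and for Usp26, Usp50, Usp54 and Usp49 among those under the filter.

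**Figure D5:**
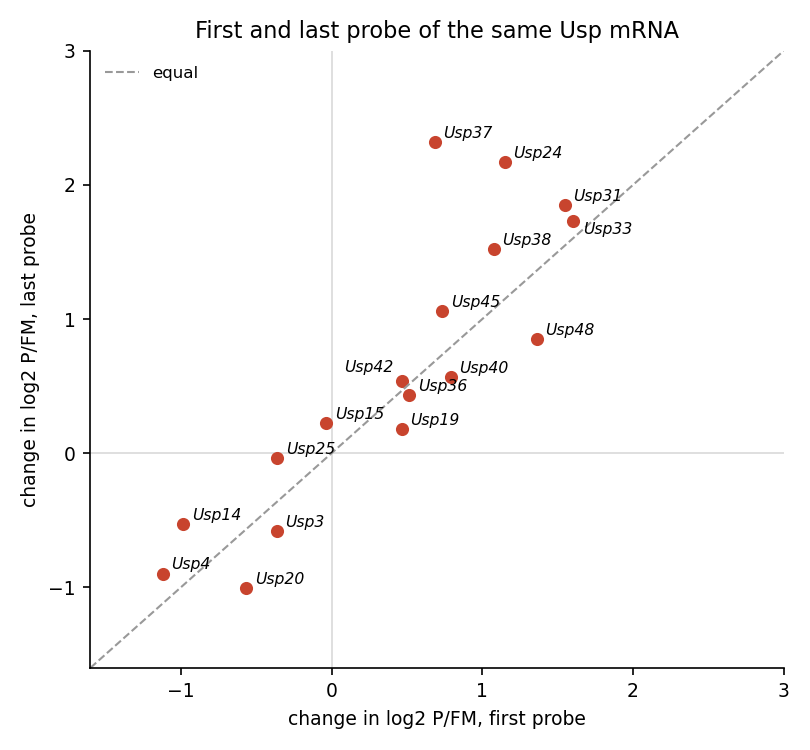
Change in log2 P/FM at the first probe (x axis) and at the last probe (y axis) of 17 Usp mRNAs, with the dashed line at equal change. Usp37 and Usp24 lie farthest above the line, and Usp15 alone has opposite signs.

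Under the filter were 15 accessions, for which no change is given. They were Usp2, Usp9y, Usp13, Usp17l5 (now Usp17lc), Usp18, Usp26, Usp27x, Usp29, 1 of 2 accessions of Usp33, Usp43, Usp44, Usp49, Usp50, Usp52 and Usp54. Usp9y, on the Y chromosome, Usp26, known from the testis, and Usp29 had A between 1.86 and 3.14 on both arrays. Usp18, which removes the ubiquitin-like protein Isg15 and is induced by interferon, had A of 2.90 and 3.07. Usp2 and Usp52 passed the filter under thapsigargin alone, with A of 5.33 and 5.79. A further 29 probes carried Usp names under other accessions and were not members. The brightest, for Usp34, which acts on the Wnt pathway protein Axin, had log2 P/FM of -1.37 and 1.33.

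Other genes of ubiquitin metabolism were set beside the family. Of 34 other deubiquitinases 30 were detected, with a median change of -0.66, 14 sensitive (46.7%, against 47.0% of all mRNAs) and 5 inducible (16.7%, against 8.86%). Vcpip1 rose from -0.26 to 1.60, Mysm1, for histone H2A, from -0.74 to 0.95 and 1 accession of Cyld, for NF-kappaB signalling, from -0.49 to 1.21. Mpnd fell from 1.20 to -1.94 and Uchl3 from 2.14 to -0.57. Of 40 mRNAs for ubiquitin, E1 and E2 enzymes 36 were detected, with a median change of -1.33 and 24 sensitive (66.7%), among them Ube2m, the E2 enzyme for the ubiquitin-like protein Nedd8, which fell from 2.57 to -0.04. Of 20 mRNAs for partners of Usp proteins 19 were detected, with a median change of -0.20, 7 sensitive (36.8%) and 1 inducible (5.26%, an accession of G3bp2). Among these, Wdr48, the activator of Usp1, Usp12 and Usp46, was at 0.64 and 0.44, Gmps, bound by Usp7, at 1.47 and 1.30, and G3bp1, bound by Usp10, at 1.07 and 0.36. The median of other deubiquitinases was thus near that of all mRNAs (-0.71). That of partners lay above it and that of the ubiquitin, E1 and E2 list below it, in comparisons with no test.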

How the data were processed

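Two-colour arrays of control and thapsigargin cells, 1 per group, were read with Feature Extraction 10.7.1.1 per the file headers. The deposited spot and background intensity values were not normalized. Flags of 0 or 1 mark outlier, saturated and well-above-background spots per the file headers. The authors also deposited a table of log2 ratios, and 37 Usp accessions are in it. Of its coding values, 99.99% in control and 100% under thapsigargin equalled those computed here within 0.001. Per the labels, equal volumes of both fractions were labelled, with 300 ng of RNA in total, and per the methods each fraction's share of the RNA was preserved and labelled cRNA hybridised in equal volumes, so that log2 P/FM depends on the amounts in the pools.

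Median local background was subtracted from mean signal in limma 3.58.1 (R 4.3.3), with values under 0.5 set to 0.5, after the study's methods, without normalization. Outlier spots (295 of 43379) were left out. Spots were averaged to probes and probes to accessions in Python 3.11.15 with pandas 2.3.3 and scipy 1.17.1. Flagged well above background were 42.5% to 46.3% of spots per channel and with 1 array per group their number sets the precision. Bounds for dim channels used the lowest well-above-background signal on that array without a background outlier, or the measured signal where that was higher. Some unflagged signals were above this lowest signal, so all bounds given are conditional on the limit used. Position ranges were chosen with the data in view.

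Members and lists were chosen with earlier results of these data known. Named were the 8 largest rises and 8 largest falls among mRNAs well above background, changes in A of 1 or more, the members of role groups chosen from textbook knowledge, and mRNAs whose probes differed by 1 or more. The 10 alternatives were normexp (offset 50), processed signals, deposited ratios, loess, centring, spike-in scaling, 3 filters and gene symbols as unit. Scripts were tested on simulated data. Accessions were matched to a RefSeq table for names, 50 of 51 with 2 symbols changed. Probe positions are on mm9 per the array files.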

Additional observations from a re-analysis of the deposited data

How the results depend on the processing

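No paired analysis was possible because each group has 1 array. With 1 array per group no replicate could be left out, and a value was taken to have moved when it shifted by more than 0.32, the median SD over probes, and a count when it differed by more than 1.5 times. The Usp median log2 P/FM in control cells, -0.14, was -0.55 with normexp background correction (also -0.55 over all mRNAs), -0.48 after centring, 0.26 after spike-in scaling and 0.07 with A above 7. The median under thapsigargin, 0.15, was 0.71 with processed signals and 3.1 after spike-in scaling. The median change, 0.30, was 0.65 with processed signals, 0.68 with loess, 0.93 after centring and 2.85 after spike-in scaling, and turned to -0.37 with A above 7 (15 mRNAs) and -0.20 over mRNAs well above background (27). The 3 sensitive mRNAs (8.33%, against 47.0% of all) became 0 with normexp (against 13.4%), centring (against 27.3%) or spike-in scaling (against 0.638%) and 1 with A above 7 (6.67% against 59.9%). The 6 inducible mRNAs (16.7%, against 8.86% of all) became 10 with processed signals (24.4% against 13.4%), loess (27.8% against 14.3%) or no filter on A (19.6% against 9.4%), 14 after centring (38.9% against 18.4%), 15 after spike-in scaling (41.7% against 21.6%), 1 with A above 7 (6.67% against 5.1%) and 2 over mRNAs well above background (7.41% against 7.52%). The median change in A, 0.69, was -1.12 with normexp. By construction the filters change which mRNAs are counted, and normexp with an offset lets all 51 pass. For other shifts the cause was not tested. With deposited ratios 5 mRNAs were inducible (14.7% against 8.41%) and with loess 2 were sensitive (5.56% against 27.2%), within the limit for counts. The Usp median change was above that of all mRNAs in the 8 settings that could alter the difference. Signal over background limits Usp9x, Usp12, Usp22, Usp24, Usp37, Usp38, Usp46, Usp47 and Usp53.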
